A study of Mus musculus with 14 samples.

Results

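The genes described here are 10 of the receptors, co-receptors, adaptor and inhibitors around the sensing of bacterial lipopolysaccharide (LPS), of 19938 genes with a probe set of their own on the array. They are Cd180 and Ly86 (the RP105 complex), Tlr4 and Ly96 (the TLR4 complex), Cd14 and Lbp (transfer of LPS), Tlr2, Myd88, Irak3 and Tnfaip3. Membership was set by name, each gene was read by the single probe set annotated to it alone, and all 10 were measured. Liver RNA came from 7 HFM and 7 HFS animals, 1 array per mouse. All were male C57BL/6 mice, 24 weeks old, that had eaten a high-fat diet for 20 weeks. HFM mice received GFP-labelled human bone marrow MSCs from a single donor through the tail vein, HFS mice received the vehicle without cells, and livers were taken 24 hours later. The vehicle is named saline in the labels and PBS in part of the methods, and no mice on another diet were analysed here.

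LPS is the outer membrane lipid of Gram-negative bacteria, and the liver meets it continually in portal blood from the gut. LBP, a protein that hepatocytes secrete, lifts LPS from aggregates and hands it to CD14 on the cell surface, which passes it to MD-2 (Ly96) bound to the receptor TLR4. Through the adaptor MyD88 and the IRAK kinases the receptor then activates NF-kB, while IRAK-M (Irak3) and the ubiquitin-editing enzyme A20 (Tnfaip3) restrain the signal. RP105 (Cd180) resembles TLR4 outside the cell but lacks the intracellular signaling domain, and it is held by MD-1 (Ly86) as TLR4 is by MD-2. In macrophages and dendritic cells of mice RP105 restrains TLR4, and in B cells it promotes the response to LPS.

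The regions upstream of Cd180 and Ly86 are shown because these partners varied together from mouse to mouse. Both genes lie on chromosome 13, and the 250 bases before the annotated start of each are given from RefSeq (GRCm38.p6) on the plus strand, 5′ to 3′. Capitals mark GGAA and its reverse complement TTCC, the core read by ETS factors such as PU.1 of macrophages and B cells.
Cd180, chr13:102693297-102693546: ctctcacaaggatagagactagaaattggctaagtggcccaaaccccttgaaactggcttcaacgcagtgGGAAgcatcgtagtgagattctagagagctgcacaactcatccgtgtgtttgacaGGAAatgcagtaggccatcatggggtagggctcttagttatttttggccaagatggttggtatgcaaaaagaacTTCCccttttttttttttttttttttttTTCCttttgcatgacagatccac
Ly86, chr13:37345095-37345344: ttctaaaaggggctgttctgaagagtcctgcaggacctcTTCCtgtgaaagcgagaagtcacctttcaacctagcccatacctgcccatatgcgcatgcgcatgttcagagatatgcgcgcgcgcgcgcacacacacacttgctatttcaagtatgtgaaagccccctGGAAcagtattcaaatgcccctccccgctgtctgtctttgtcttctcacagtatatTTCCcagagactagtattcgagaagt
The core occurred 4 times upstream of Cd180 and 3 times upstream of Ly86. It occurred at least once in 93.4% of the 32851 upstream windows of this length in the table, so its presence sets neither gene apart.

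Expression was deposited on the log2 scale after normalization across arrays. Values ran from 1.33 to 14.06 over all probe sets, array medians ran from 4.24 to 4.35, and pairs of arrays correlated at 0.979 to 0.995. Each gene was compared as HFM minus HFS with limma, and adjusted p values are over all 23410 probe sets with a gene symbol. None of these passed an adjusted p of 0.05 (0% called), and none of the 10 genes did. At an unadjusted p under 0.05, 1 of the 10, Tlr4, was higher in HFM livers and 0 were lower, where 3.57% of all probe sets were higher and 2.9% lower. At an unadjusted p from limma under 0.01 with a difference of at least 1.2-fold, 0 of the 10 passed, against 0.696% of all probe sets. The study's methods name these thresholds together with a Bonferroni correction, which is left out of that count and which no probe set passes at 0.05 in this fit, since none passes the less strict adjustment. The difference was above 0 for 9 of the 10 genes, against 51.4% of all probe sets, with a median of 0.15 against 0.00. That count is a description and carries no test. The paper reports Cd180 and Ly86 as upregulated on these same arrays, and several of the genes varied together between mice. For none of the 10 were the groups separate, and 0.0555% of all probe sets had groups that did not overlap. The 8 hepatocyte markers measured averaged 11.47 ± 0.09 in HFM and 11.45 ± 0.11 in HFS livers (SD, n = 7 each), far above the array medians in every mouse.

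**Figure D1:**
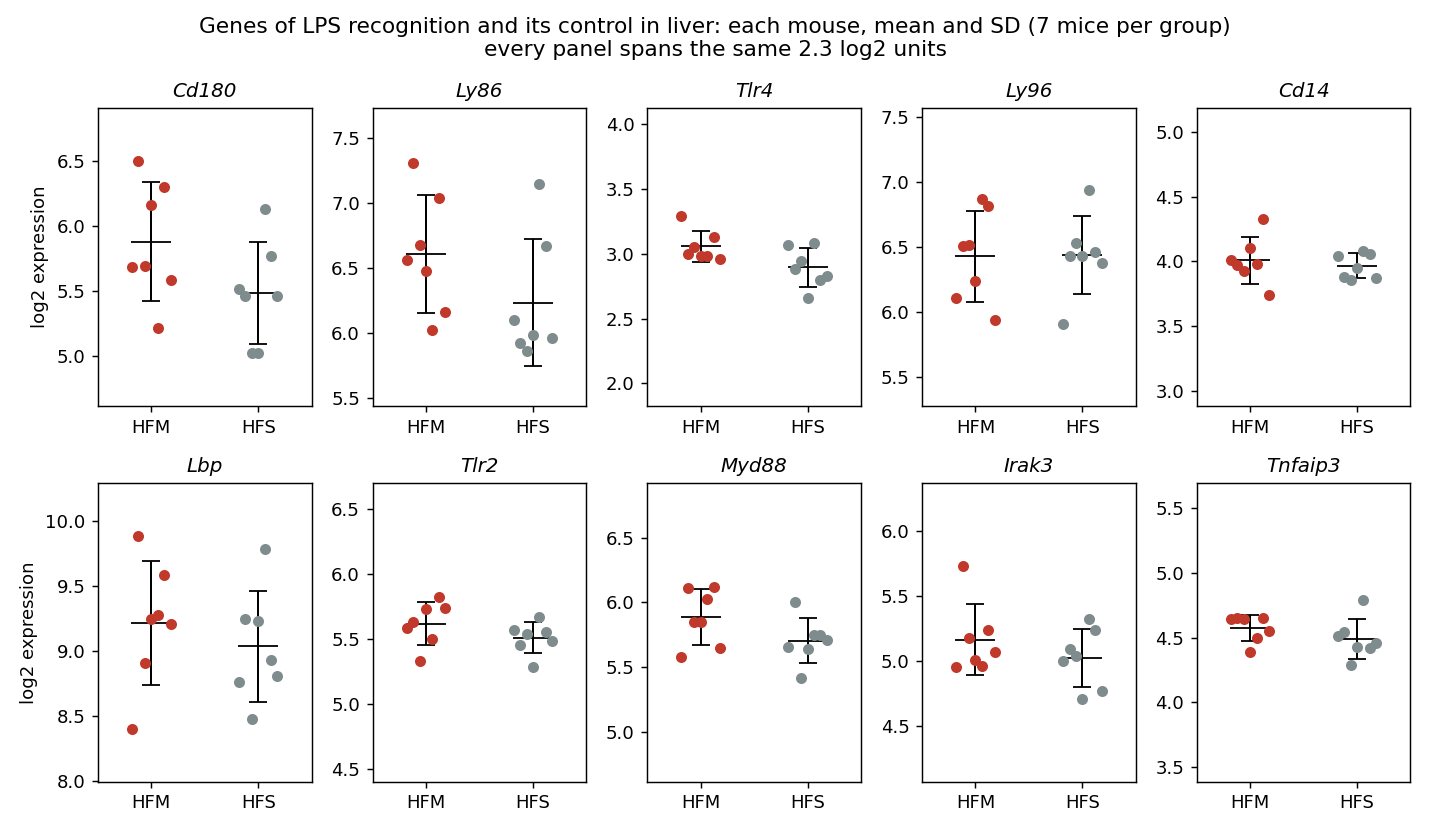
Log2 expression, as deposited, of the 10 genes in HFM (red) and HFS (gray) livers. Each point is a mouse, bars show means with their SD (n = 7), and each vertical axis spans the same number of log2 units. Cd180 averaged 5.88 ± 0.46 in HFM livers, against 5.48 ± 0.39 in HFS livers, and the points of the groups overlap in every panel.

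Cd180, the RP105 receptor itself, ran from 5.21 through a median of 5.69 to 6.50 in HFM mice, against 5.02, 5.46 and 6.13 in HFS mice. HFM2, HFM6 and HFM4 lay above every HFS mouse, while HFM5, the lowest HFM mouse, lay below 5 of the 7 HFS mice. The means were 5.88 ± 0.46 in HFM and 5.48 ± 0.39 in HFS livers (SD, n = 7 each), a log2 difference of 0.39 (standard error 0.19, 95% confidence interval -0.0038 to 0.79), which is 1.31-fold. This did not pass the test (limma, p = 0.0520, adjusted p = 0.775; exact permutation test, two-sided, p = 0.110).

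Ly86, the secreted partner MD-1 that RP105 needs to reach the cell surface, ran from 6.02 through a median of 6.56 to 7.31 in HFM mice, against 5.86, 5.98 and 7.15 in HFS mice. Only HFM2 lay above every HFS mouse. Most HFS mice were close together between 5.86 and 6.10, and HFS6 and HFS5 stood above them at 6.67 and 7.15. The means were 6.61 ± 0.46 in HFM and 6.23 ± 0.49 in HFS livers (SD, n = 7 each), a log2 difference of 0.37 (standard error 0.21, interval -0.066 to 0.81). It did not pass the test either (limma, p = 0.0911, adjusted p = 0.796; exact permutation test, two-sided, p = 0.157).

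Both RP105 genes varied widely between mice of the same group. The standard deviation within groups was 0.43 for Cd180 and 0.47 for Ly86, where the median over all probe sets tested was 0.15. They were high and low in the same mice. HFM2 and HFM6 were the highest HFM mice for both genes, HFS5 and HFS6 the highest HFS mice for both, and HFM5 the lowest HFM mouse for both. Across the 14 mice Cd180 and Ly86 correlated at a Pearson r of 0.90 (permutation test, p = 1e-05, adjusted over 13 relations 6.5e-05) and a Spearman rho of 0.90 (permutation p = 5e-05, adjusted 0.000325). A p of 1e-05 is the smallest that 100000 permutations can give. The Pearson r was 0.88 in the 7 HFM mice and 0.88 in the 7 HFS mice, and it was 0.82 without HFM2 and HFM6, the mice farthest from the median of Cd180.

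**Figure D2:**
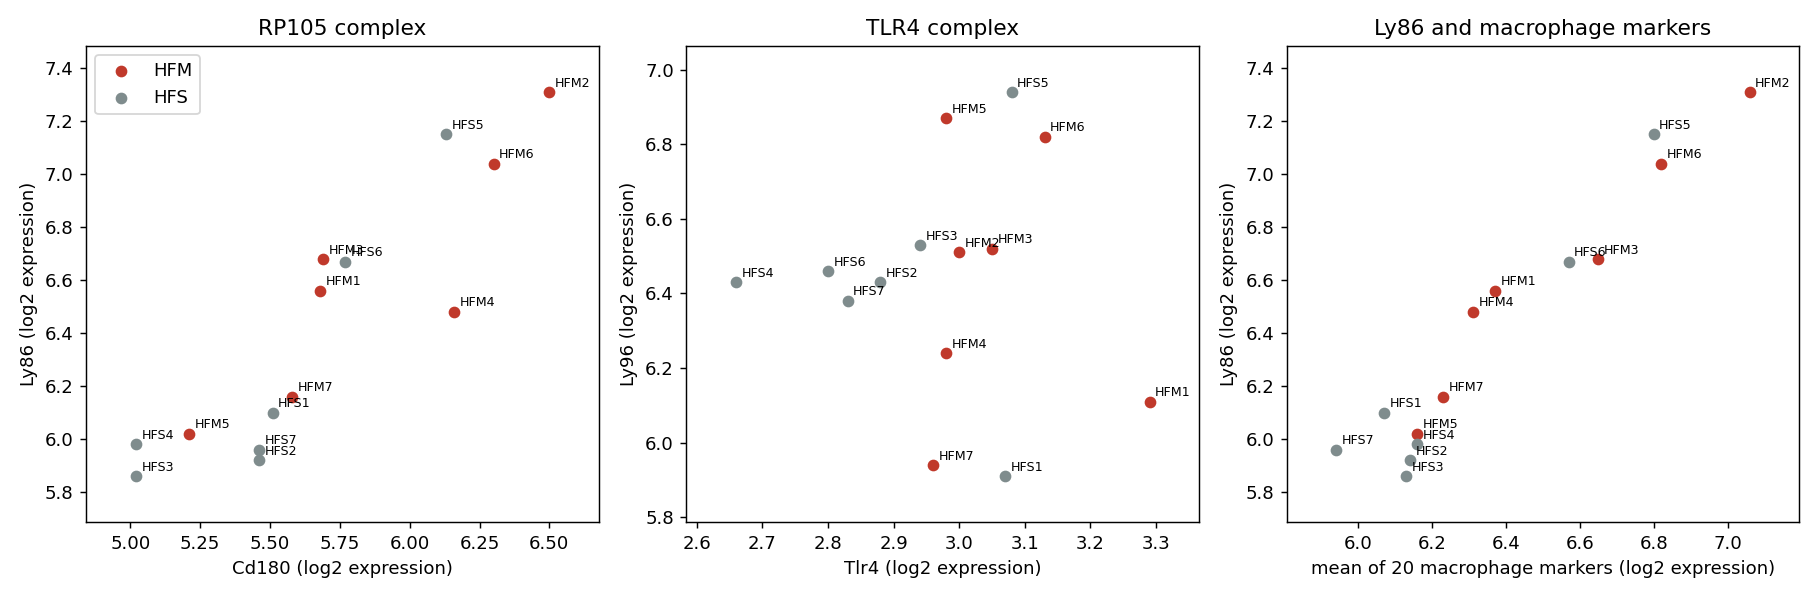
Log2 expression per mouse of Ly86 against Cd180 (left), of Ly96 against Tlr4 (middle) and of Ly86 against the mean of 20 markers of Kupffer cells and macrophages (right), with HFM mice in red and HFS mice in gray. The RP105 partners line up at a Pearson r of 0.90 and Ly86 lines up with the markers at 0.97, while the TLR4 partners have an r of -0.029. Tlr4 values lie below the array medians, which limits what that r can show.

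The genes whose pattern across the 14 mice was most like the mean of Cd180 and Ly86, among 19928 other genes, were C1qa, C1qb, Sirpa, Ctss and Cybb. C1qa and C1qb encode chains of complement C1q, Sirpa a receptor for the "do not eat me" signal CD47, Ctss the lysosomal protease cathepsin S and Cybb the catalytic subunit of the phagocyte oxidase. Their Pearson r with that mean ran from 0.95 to 0.97, and over deviations from the group means it also ran from 0.95 to 0.97. As these genes were picked for their likeness, their r is a description and carries no test. They were above 0 as well, from 0.28 (C1qa) to 0.41 (C1qb) on the log2 scale. The paper lists C1qa, Sirpa and Ctss among its differentially expressed genes on these arrays.

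Markers of Kupffer cells, the resident macrophages of the liver, and of macrophages in general moved with the RP105 genes. All 20 measured markers of this joint list were above 0 in HFM against HFS livers, with a median of 0.26, where 51.4% of all probe sets were above 0. An unadjusted p under 0.05 was reached by 5 of them, Cd5l, Marco, C1qb, Cd68 and Mpeg1, where 3.57% of all probe sets were higher at that p. Mpeg1 also had an unadjusted p under 0.01, and 0 of the 20 passed an adjusted p of 0.05. The paper names Cd5l, Marco, Cd68, Adgre1 and C1qa of this list as differentially expressed on these arrays, so the count is no independent result. The mean log2 level of the 20 markers ran from 6.16 to 7.06 in HFM mice and from 5.94 to 6.80 in HFS mice. In bulk liver RNA, fewer or more cells of a type and less or more RNA per cell cannot be told apart. Of the defining markers, Clec4f had a log2 difference of 0.19 (standard error 0.19), Vsig4 of 0.12 (standard error 0.28), Timd4 of 0.24 (standard error 0.18), Marco of 0.35 (standard error 0.16) and Adgre1 of 0.45 (standard error 0.23).

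Ly86 followed the mean of these markers at a Pearson r of 0.97 (permutation p = 1e-05, adjusted 6.5e-05) and a Spearman rho of 0.93 (permutation p = 1e-05, adjusted 0.00013). It stayed at 0.94 without HFM2 and HFM6, and was 0.97 among HFM and 0.95 among HFS mice. Cd180 followed the mean at an r of 0.82 (permutation p = 0.00043, adjusted 0.0014) and a rho of 0.84 (permutation p = 0.00031, adjusted 0.00134). Its r was 0.66 without HFM2 and HFM6, 0.80 among HFM and 0.76 among HFS mice. With the marker mean subtracted in each mouse, a comparison chosen after the data were seen, Cd180 averaged -0.64 ± 0.28 in HFM mice, against -0.78 ± 0.26 in HFS mice. The difference was 0.14 (interval of the exact permutation test -0.17 to 0.45, p = 0.360), against 0.39 before subtraction. After the same step Ly86 averaged 0.09 ± 0.15 in HFM mice, against -0.02 ± 0.22 in HFS mice, a difference of 0.12 (interval of the exact permutation test -0.11 to 0.33, p = 0.259), against 0.37 before.

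Markers of B cells, the other main cells with surface RP105, were split in direction. Of 10 measured, 7 were above 0 and 3 below, 0 were higher and 2, Cd79a and Blk, were lower at an unadjusted p under 0.05. Over all probe sets, 51.4% were above 0 and 2.9% were lower at that p. The paper also lists Blk among its differentially expressed genes on these arrays. The mean level of the 10 markers ran from 3.61 to 3.75 in HFM mice and from 3.59 to 3.73 in HFS mice, below the array medians. Of the defining markers, Ms4a1 averaged 2.76 ± 0.17 in HFM livers, against 2.62 ± 0.15 in HFS livers, and Cd79a averaged 3.18 ± 0.25 in HFM livers, against 3.42 ± 0.16 in HFS livers (SD, n = 7 each). Of 7 markers of dendritic cells, 1 was above 0 and 6 below, and none passed an unadjusted p of 0.05.

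Tlr4, the signaling receptor for LPS, ran from 2.96 through a median of 3.00 to 3.29 in HFM mice, against 2.66, 2.88 and 3.08 in HFS mice. Every HFM mouse lay above the HFS mean, although only HFM1 and HFM6 lay above every HFS mouse. The means were 3.06 ± 0.12 in HFM and 2.89 ± 0.15 in HFS livers (SD, n = 7 each), a log2 difference of 0.16 (standard error 0.08, interval 0.0024 to 0.32), or 1.12-fold. The unadjusted p was 0.0470 from limma and 0.0466 from the two-sided exact permutation test, and the adjusted p from limma was 0.772. The unadjusted p from limma was not under 0.05 in 8 of the 14 fits that left out 1 mouse (without HFM1, HFM3, HFM6, HFS2, HFS3, HFS4, HFS6 or HFS7, up to 0.117), and it was 0.0507 with array weights. These levels are below the medians of the arrays, and no detection call was available for them here.

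Ly96, which encodes the LPS-binding subunit MD-2, had close means in the groups and a wide spread. It ran from 5.94 through a median of 6.51 to 6.87 in HFM mice, against 5.91, 6.43 and 6.94 in HFS mice. HFM5, the lowest HFM mouse for both RP105 genes, was the highest HFM mouse for Ly96. The means were 6.43 ± 0.35 in HFM and 6.44 ± 0.30 in HFS livers (SD, n = 7 each), a difference of -0.01 (standard error 0.15, interval -0.32 to 0.30; limma, adjusted p = 0.994).

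No relation between the TLR4 partners was detected, but the low level of Tlr4 limits what could be seen. Tlr4 lay below the array medians, with an SD within groups of 0.14, against a median of 0.15 over all probe sets tested. An r near 0 therefore does not show that the partners are unrelated. Tlr4 and Ly96 had a Pearson r of -0.029 (permutation p = 0.921, adjusted 0.921) and a Spearman rho of 0.11 (permutation p = 0.705, adjusted 0.705) over the 14 mice, and an r of 0.23 without HFM1 and HFS4. Against the mean of the macrophage markers, r was 0.37 for Tlr4 (permutation p = 0.192, adjusted 0.236) and 0.45 for Ly96 (permutation p = 0.106, adjusted 0.153), with rho of 0.49 and 0.42. Whether these r differ from those of the RP105 genes was not tested. The genes most like the mean of Tlr4 and Ly96 were Ckap5, Ralgps2, Nkapd1, Cnot2 and Nup98, with r from 0.83 to 0.87, given as a description only. That mean mostly followed Ly96, which varied more, with an r of 0.89 for Ly96 and 0.43 for Tlr4. These genes therefore do not describe Tlr4.

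Whether the RP105 genes differed more between the groups than their TLR4 counterparts was tested within each array. Cd180 minus Tlr4 was 2.82 ± 0.47 in HFM and 2.59 ± 0.34 in HFS mice (SD, n = 7 each), higher in HFM by 0.23. The two-sided exact permutation test gave p = 0.301 (adjusted over both differences 0.301), with an interval of -0.25 to 0.72. Ly86 minus Ly96 was 0.18 ± 0.50 in HFM and -0.21 ± 0.39 in HFS mice, higher by 0.38 in HFM mice. For this difference the exact permutation test gave p = 0.147 (adjusted 0.294), with an interval of -0.13 to 0.88. Neither test separates the complexes, and the intervals reach from a difference in the opposite direction to more than the whole difference of Cd180 or Ly86. Without HFM5 alone, Ly86 minus Ly96 was higher by 0.56 with an unadjusted p of 0.0140, and with any other mouse left out p ran from 0.106 to 0.284 (exact permutation tests).

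**Figure D3:**
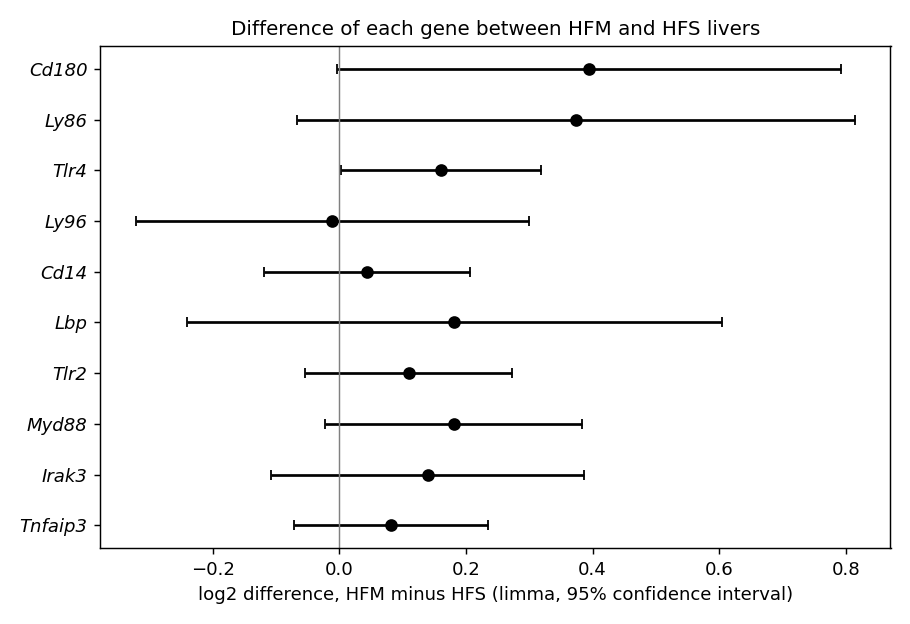
Log2 difference, HFM minus HFS, of each of the 10 genes (point) with its 95% confidence interval from limma (bar). Cd180 (0.39) and Ly86 (0.37) lie farthest to the right with wide intervals, and only the interval of Tlr4 (0.0024 to 0.32) stays above 0.

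Of the proteins that deliver LPS, Lbp, made by hepatocytes as part of the acute phase response, ran from 8.40 through a median of 9.25 to 9.89 in HFM mice, against 8.48, 8.93 and 9.79 in HFS mice. The HFM group held both the highest mouse (HFM2) and the lowest (HFM1). The log2 difference was 0.18 (standard error 0.20, interval -0.24 to 0.60; limma, adjusted p = 0.894). It ranged from 0.069 without HFM2 to 0.32 without HFM1, and was moved by over 1.5 times without HFM6, HFS3 or HFS5 as well. Cd14, the co-receptor that loads MD-2, ran from 3.74 through a median of 3.98 to 4.33 in HFM mice, against 3.86, 3.95 and 4.08 in HFS mice. Its values in HFM mice spread beyond the HFS mice at both ends, with HFM6 highest and HFM7 lowest. The difference was 0.04 (standard error 0.08, interval -0.12 to 0.21; limma, adjusted p = 0.936). Cd14 and Lbp correlated at an r of 0.32 (permutation p = 0.260, adjusted 0.282) and a rho of 0.35 (permutation p = 0.215, adjusted 0.233). Cd14 averaged 4.01 in HFM and 3.97 in HFS mice, below the array medians, which limits what its difference and r can show.

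Tlr2, which senses bacterial lipoproteins and not LPS, ran from 5.33 through a median of 5.63 to 5.82 in HFM mice, against 5.28, 5.54 and 5.67 in HFS mice. Of the HFM mice, 3 lay above every HFS mouse. The log2 difference was 0.11 (standard error 0.08; limma, adjusted p = 0.831). Myd88, the adaptor that TLR2 and TLR4 share, ran from 5.58 through a median of 5.85 to 6.12 in HFM mice, against 5.42, 5.71 and 6.00 in HFS mice. Its difference of 0.18 (standard error 0.10, interval -0.02 to 0.38) was close to that of Lbp with a smaller spread between mice (limma, adjusted p = 0.793). Again 3 HFM mice lay above every HFS mouse, while HFM1 and HFM7 lay below the HFS mean.

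The intracellular inhibitors, like every other member except Tlr4, differed between the groups by less than the SD within groups. Irak3, the catalytically inactive kinase IRAK-M of macrophages, ran from 4.95 through a median of 5.07 to 5.73 in HFM mice, against 4.71, 5.04 and 5.32 in HFS mice. The top value belonged to HFM2, the mouse with the highest Cd180 and Ly86, and the next HFM mouse was at 5.24. The difference was 0.14 (standard error 0.12; limma, adjusted p = 0.851), and 0.05 without HFM2. Tnfaip3, an NF-kB target that switches the pathway off, ran from 4.39 through a median of 4.64 to 4.65 in HFM mice, against 4.29, 4.46 and 4.79 in HFS mice. HFS5 was the highest of all 14 mice. The difference was 0.08 (standard error 0.07; limma, adjusted p = 0.865), 0.048 without HFS3 and 0.13 without HFS5.

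Of the other members, Irak3 followed the macrophage markers most closely, with a Pearson r of 0.87 (permutation p = 2e-05, adjusted 8.7e-05) and a rho of 0.73 (permutation p = 0.00389, adjusted 0.0126). Without HFM2 and HFM6 its r was 0.79, and it was 0.90 among HFM and 0.81 among HFS mice. Tnfaip3 had an r of 0.66 (permutation p = 0.0108, adjusted 0.0281) and a rho of 0.63 (permutation p = 0.0186, adjusted 0.0484), with an r of 0.61 without those mice, 0.65 among HFM and 0.61 among HFS mice. Lbp had an r of 0.62 (permutation p = 0.0181, adjusted 0.0392) and a rho of 0.55 (permutation p = 0.0457, adjusted 0.0990), and its r was 0.36 (permutation p = 0.255) without HFM2 and HFM6. Within groups of 7 mice the r of Lbp was 0.55 among HFM and 0.67 among HFS mice (exact permutation p = 0.206 and 0.105). For Cd14, Tlr2 and Myd88 the r were 0.50, 0.36 and 0.52, with adjusted permutation p of 0.106, 0.236 and 0.106 and rho of 0.50, 0.47 and 0.48.

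The wider pathway was described through lists of receptors, adaptors, transcription factors, regulators and targets, 92 genes measured of 101 listed. By limma, 7 had an unadjusted p under 0.05 with the HFM mean above the HFS mean and 1 with it below. Over all probe sets, these shares were 3.57% and 2.9%. Of the 92 genes, 61 were above 0, against 51.4% of all probe sets, and 0 passed an adjusted p of 0.05. Of 12 other Toll-like receptors and their chaperones, 11 were above 0, with a median of 0.11. Unc93b1, which carries nucleic acid-sensing receptors to endosomes, was higher by 0.25 (standard error 0.10, unadjusted p = 0.0266), and Tlr8 and Tlr13, endosomal sensors of RNA, had differences of 0.30 (standard error 0.17) and 0.19 (standard error 0.11). Of 11 genes that handle LPS outside the TLR4 complex, 9 were above 0, with a median of 0.12. The integrin subunit Itgb2 of leukocytes was higher by 0.34 (standard error 0.13, unadjusted p = 0.0174), while the scavenger receptors Msr1 and Scarb1 had differences of 0.23 (standard error 0.14) and 0.15 (standard error 0.09). The paper lists Unc93b1 and Itgb2 among its differentially expressed genes on these arrays, so they are no independent result.

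RNA differences of genes for the signaling steps below the receptors lay on both sides of 0. Signaling itself was not measured, and Myd88 is counted among the 10 genes, not in these lists. Of 16 adaptors and kinases, 8 were above 0 and 8 below, with a median of 0.01 and none past an unadjusted p of 0.05. Those with the smallest p were Tbk1, a kinase that activates IRF3, at 0.16 (standard error 0.09), its relative Ikbke at 0.11 (standard error 0.08) and Tab3, a partner of the kinase TAK1, at -0.08 (standard error 0.07). Of 10 transcription factors, 4 were above 0 and 6 below. Irf7, an interferon regulatory factor, was higher by 0.33 (standard error 0.16, unadjusted p = 0.0491), Jun, a subunit of AP-1, had a difference of 0.25 (standard error 0.12) and Nfkb2, a subunit of NF-kB, of -0.12 (standard error 0.07).

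Of 20 other negative regulators, 14 were above 0 and 6 below, with a median of 0.06, where 51.4% of all probe sets were above 0. Tollip, which binds IRAK1 and dampens Toll-like receptor signals, averaged 6.26 ± 0.04 in HFM livers, against 6.08 ± 0.13 in HFS livers (SD, n = 7 each), higher by 0.18 (standard error 0.06; unadjusted p from limma 0.0107, adjusted 0.731), with 7 of 7 HFM mice above the HFS mean. Trim30a, which restrains NF-kB in mice, had a difference of 0.25 (standard error 0.14), and Nfkbie, an inhibitor that holds NF-kB in the cytoplasm, of -0.16 (standard error 0.09). Of 23 target genes, 15 were above 0 and 8 below, with a median of 0.04. Among them 3 had an unadjusted p under 0.01 with a difference of at least 1.2-fold, against 0.696% of all probe sets. These were Saa3, higher by 0.81 (standard error 0.15), Lcn2, by 1.30 (standard error 0.41), and Vcam1, by 0.44 (standard error 0.12). They encode an acute phase protein, an iron-withholding protein and a leukocyte adhesion molecule. Their adjusted p from limma were 0.482, 0.714 and 0.714. The paper names all 3 as differentially expressed on these arrays, so the count is no independent result. Lcn2 ran from 8.37 to 11.92 in HFS mice, which holds its whole HFM range of 10.40 to 11.89. Il12b, a cytokine subunit of activated macrophages and dendritic cells, was lower by 0.18 (standard error 0.07, unadjusted p from limma 0.0198, adjusted 0.767). Its means were 3.54 ± 0.12 in HFM livers and 3.72 ± 0.13 in HFS livers (SD, n = 7 each), both below the array medians. The other 19 targets had an unadjusted p of 0.05 or more. Beside these targets, 10 of 11 neutrophil markers were above 0, with a median of 0.11 and mean levels from 3.59 to 4.88 in HFM mice and from 3.51 to 4.13 in HFS mice, and 7 of 8 stellate cell and fibroblast markers were, with a median of 0.20 and mean levels from 6.37 to 6.87 in HFM mice and from 6.42 to 6.67 in HFS mice. The part of these markers in the values of the targets was not tested.

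**Figure D4:**
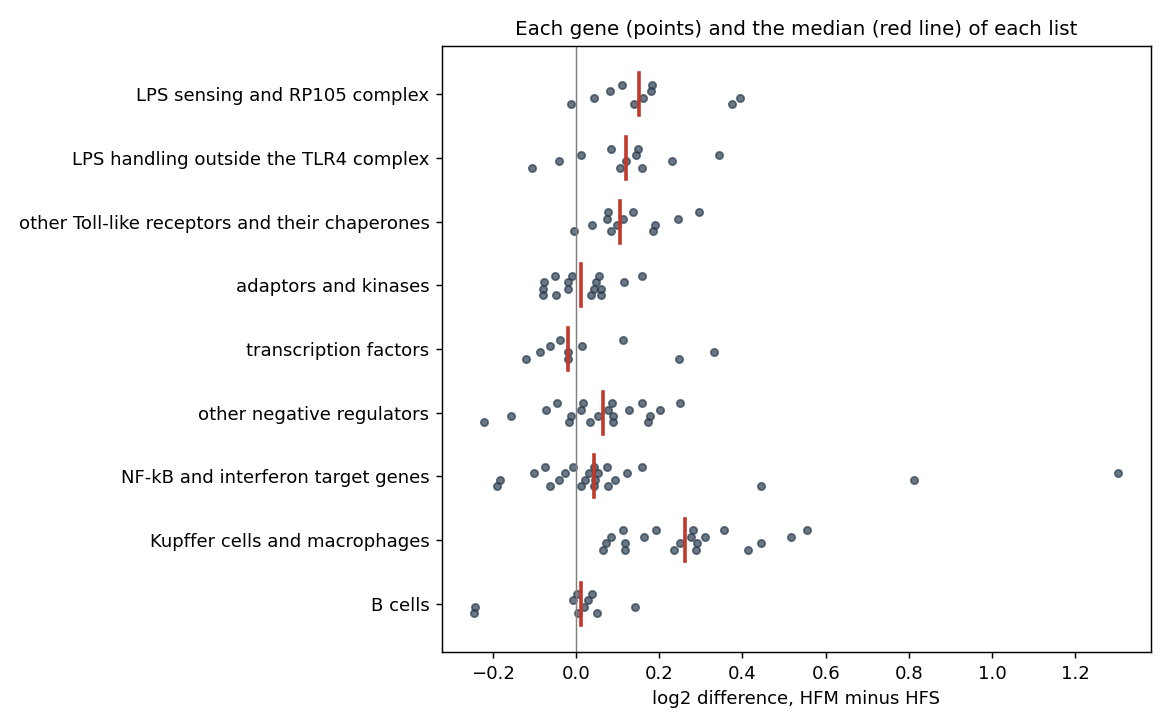
Log2 difference, HFM minus HFS, of each gene (points) and the median (red line) of the 10 genes, 6 lists of other genes of the pathway and 2 lists of cell type markers. The medians of the macrophage markers (0.26) and of the 10 genes (0.15) lie farthest above 0 among the lists drawn, and those of adaptors and kinases (0.01) and of B cell markers (0.01) lie near it. Other cell type lists are not drawn. Of these, the stellate cell and fibroblast markers had a median of 0.20, above that of the 10 genes, and the neutrophil markers of 0.11.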

How the data were processed

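Liver RNA of 7 HFM and 7 HFS mice was hybridised to Affymetrix Mouse Gene ST arrays. The authors summarized the arrays in Expression Console and deposited log2 values normalized between arrays, with RMA named in the labels and PLIER in the paper. In the sources used here, versions and genome build are not given. All 14 value columns were used and 0 left out. Of 35556 probe sets, the 23410 with a gene symbol were fitted with limma 3.58.1 in R 4.3.3 with no covariate, and 12146 were not used. Adjusted p values follow Benjamini and Hochberg. For each gene, the probe set with exactly 1 symbol and the highest mean was taken. The identifiers of all 10 genes matched RefSeq, and 6 had an upstream window there. Exact tests ran over 3432 assignments of mice, and correlations used 100000 permutations (exact within groups) in SciPy 1.17.1. Nothing says whether mice shared a litter or a batch, and p values measure the spread between these mice. The members and lists were chosen with earlier results of these data known. The single genes named are the 3 of smallest p in each pathway list and set defining markers of Kupffer and B cells. The 5 genes most like the mean of each receptor pair are named as well. Il12b, Blk, Cd5l, Cd68 and Mpeg1 were named after their values were seen. Alternatives were other normalization, centring, filters, array weights, priors, an unmoderated test, the replicate number as a block and each mouse left out. In simulated data of these 23410 probe sets with 200 changed, an adjusted p of 0.05 recovered 4% of 1.2-fold and 90% of 1.5-fold changes. The changed probe sets were drawn at random and kept their own SD within groups, with a median of 0.15 over all. Cd180 and Ly86 had an SD of 0.43 and 0.47, so these shares do not apply to them, and theirs were not computed.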

Additional observations from a re-analysis of the deposited data

Results flagged for a closer look

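Within 20 groups of 7 mice (10 genes in HFM and in HFS), 1 value stood apart from its group, where chance alone gives about 1 in 20. Irak3 in HFM2 was at 5.73, with the next HFM mouse at 5.24, a gap of 0.624 of the group's whole range. HFM2 was also the highest mouse for Cd180, Ly86, Lbp and the mean of the macrophage markers.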

How the results depend on the processing

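None of the 10 genes passed an adjusted p of 0.05 under any alternative run. At an unadjusted p under 0.05, 1 gene passed as reported. The count was 2 with median centring (Tlr4 and Cd180), with array weights (Cd180 and Myd88) and with the replicate block (Tlr4 and Myd88), and 0 with dim probe sets left out, Tlr4 among them, and with all probe sets, where the p of Tlr4 was 0.0516. Tlr4 itself was under 0.05 in 6 of the 14 fits that left out 1 mouse. The count ran from 0 to 3 with each mouse left out, and was 3 without HFM5, HFM7 or HFS5 and 0 without HFM6, HFS3, HFS4 or HFS7. Cd180, Ly86, Tlr4, Lbp, Tlr2, Myd88, Irak3 and Tnfaip3 kept their direction throughout, with Cd180 from 0.29 (without HFM2) to 0.51 (without HFM5) and Ly86 from 0.26 (without HFM2) to 0.53 (without HFS5). Ly96 changed sign with median centring (0.016) and without HFM1, HFM4, HFM7, HFS3 or HFS5, over a range of -0.098 to 0.072 with each mouse left out, and Cd14 without HFM6, over a range of -0.0099 to 0.089. The difference of Irak3 ranged from 0.045 without HFM2 to 0.19 without HFS5, and was 0.088 without HFS4. That of Tlr2 was 0.072 without HFS4. The r of Tlr4 and Ly96 changed sign among HFS mice (0.039) and without HFM1 and HFS4 (0.23). Cd180 minus Tlr4 ran from 0.12 (without HFM2, and 0.15 without HFS3) to 0.33 and Ly86 minus Ly96 from 0.28 to 0.56 with each mouse left out. The counts of pathway genes ran from 5 to 12 for higher (12 without HFM7) and from 1 to 4 for lower ones (4 without HFM7), and that of macrophage markers from 2 (without HFM2, HFM6 or HFS7) to 11 (without HFS5). The shares of all probe sets called in these same fits are not given here. The changes in these counts can therefore not be read as particular to the genes counted. The cause of these changes was not tested. Whether same-numbered mice share more than a number is not stated. Over all probe sets tested, 1 of 7 pairs deviated together at an r over 0.1, and the highest was 0.139. Such an r over all probe sets cannot exclude a shared litter or batch. Taken as a replicate block, the number gave an exact permutation p, from sign flips of paired differences, of 0.328 for Cd180 minus Tlr4 and 0.234 for Ly86 minus Ly96.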
